A study of Mus musculus with 47 samples.

Results

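The 34 genes described here encode the chaperones of the endoplasmic reticulum (ER) and the machinery of the unfolded protein response, and they were read on Affymetrix mouse genome arrays of the medial prefrontal cortex (PFC). They were chosen by symbol, from probesets whose annotation gave that symbol alone. All 34 were measured, by 81 of the 45037 probesets on the arrays, among 18193 genes in all. The tissue came from adult male C57BL/6J mice. CIE (chronic intermittent ethanol) mice spent 16 hours per day in ethanol vapor of 10 to 13 mg per liter of air, for 4 days per cycle and 4 cycles, with 7 days of abstinence between cycles, and had an ethanol injection of 1.6 g/kg before each cycle. Ctrl mice breathed air and had saline. Both groups were injected with pyrazole, a blocker of alcohol dehydrogenase, at 1 mmol/kg. CIE and Ctrl mice were killed at 0h, 8h, 72h or 7d from the end of the final session, and each of the 8 groups held 6 mice, except CIE 8h with 5, so that 47 arrays each held the RNA of 1 mouse. Differences are CIE minus Ctrl of log2 RMA values, and a gene was called where its adjusted p in limma, over all probesets, was 0.01 or less (FDR 0.01). Where a gene had several probesets, the brightest over all arrays was taken.

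Proteins that enter the secretory pathway fold in the ER with the help of chaperones such as BiP (Hspa5) and GRP94 (Hsp90b1), of lectins that hold glycoproteins (Calr, Canx), and of protein disulfide isomerases. When unfolded protein accumulates, the membrane sensors IRE1 (Ern1), PERK (Eif2ak3) and ATF6 act through the transcription factors XBP1, ATF4 and cleaved ATF6. These induce more chaperones, the ER-associated degradation machinery that returns misfolded proteins to the cytosol, and, in the ATF4 arm, genes such as Ddit3 (CHOP) and Trib3. Neurons and glia both run this response, and cortical tissue measures them together.

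The element that ATF6, with NF-Y, and XBP1 bind in chaperone promoters is the ER stress response element (ERSE), which reads CCAAT, then 9 bases of any kind, then CCACG. RefSeq promoters of assembly GRCm38.p6, from 250 bases before to 50 bases after each annotated start, were searched for these letters on both strands, and 30 of the 34 genes had a promoter in the table. ERSE letters were present in 39 of all 32851 promoters (0.119%) and in the promoters of 9 of the 30 genes: Calr, Canx, Creld2, Derl3, Dnajc3, Hsp90b1, Hspa5, Pdia6 and Syvn1. Hyou1, Manf, Atf6 and Derl1 had no entry. The 250 bases before the start of Hspa5 (chr2:34771840-34772089, plus strand) are shown first because BiP is the textbook target, with the fixed letters of ERSE in capitals. The promoter of Dnajb9, the gene with the smallest adjusted p at 8h, follows (chr12:44210069-44210318, minus strand). It had no complete ERSE, and its capitals mark each CCAAT and CCACG, either of which is common by itself (37.4% and 32.8% of all promoters).
Hspa5: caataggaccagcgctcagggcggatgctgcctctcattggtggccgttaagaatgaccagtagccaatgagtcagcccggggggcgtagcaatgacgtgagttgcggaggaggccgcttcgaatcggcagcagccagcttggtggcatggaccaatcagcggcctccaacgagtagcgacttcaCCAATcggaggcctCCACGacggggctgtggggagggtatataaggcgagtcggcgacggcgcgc
Dnajb9: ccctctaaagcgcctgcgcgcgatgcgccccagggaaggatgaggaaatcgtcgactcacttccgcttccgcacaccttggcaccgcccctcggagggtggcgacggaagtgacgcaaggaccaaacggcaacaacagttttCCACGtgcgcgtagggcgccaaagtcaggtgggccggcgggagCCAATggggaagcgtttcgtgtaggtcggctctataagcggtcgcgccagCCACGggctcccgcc

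The other 8 genes with ERSE letters are shown as the element with 20 bases on either side, on the strand of the gene, since the spread of their responses is described below. Capitals mark the fixed letters. In Calr, Creld2, Derl3 and the second element of Hsp90b1 the element ran on the opposite strand and so reads as CGTGG before ATTGG. The elements began between 44 bases (Syvn1) and 212 bases (Hsp90b1) before the start. The windows lie at chr19:6046512-6046570 (Syvn1), chr10:75893222-75893280 (Derl3), chr14:118937807-118937865 (Dnajc3), chr8:84847055-84847113 (Calr), chr10:86705618-86705676 and chr10:86705513-86705571 (Hsp90b1), chr15:88819500-88819558 (Creld2), chr12:17266471-17266529 (Pdia6) and chr11:50325780-50325838 (Canx).
Syvn1: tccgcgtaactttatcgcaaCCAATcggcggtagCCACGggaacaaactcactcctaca
Derl3: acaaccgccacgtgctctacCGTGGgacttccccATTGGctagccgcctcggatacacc
Dnajc3: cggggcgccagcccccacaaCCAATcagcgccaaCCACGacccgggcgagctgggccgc
Calr: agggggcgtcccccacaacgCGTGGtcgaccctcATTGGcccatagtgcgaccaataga
Hsp90b1, first: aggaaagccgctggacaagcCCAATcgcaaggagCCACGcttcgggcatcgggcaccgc
Hsp90b1, second: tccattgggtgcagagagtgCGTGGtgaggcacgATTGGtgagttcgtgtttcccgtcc
Creld2: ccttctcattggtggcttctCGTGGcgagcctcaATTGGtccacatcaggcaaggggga
Pdia6: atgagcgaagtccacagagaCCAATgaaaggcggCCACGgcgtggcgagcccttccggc
Canx: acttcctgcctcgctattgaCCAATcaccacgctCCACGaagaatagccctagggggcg

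A shorter element, ERSE-II (ATTGG, 1 base of any kind, then CCACG), was present in 12 promoters (0.0365%), among them those of Dnajb11 and Herpud1. The C/EBP-ATF response element TTGCATCA, which ATF4 binds with a C/EBP partner, was present in 294 promoters (0.895%), among them those of Chac1 and Herpud1. The letters TGACGTG, the core of the XBP1 element, were in 661 promoters (2.01%) and, of the 30, in that of Hspa5. The promoter of Herpud1, a membrane protein of the degradation machinery, thus held both ERSE-II and the ATF4 element, shown with 20 bases on either side from chr8:94386357-94386407 and chr8:94386297-94386344. A match in a promoter is a description of its letters and was not a measurement of binding.
Herpud1, ERSE-II: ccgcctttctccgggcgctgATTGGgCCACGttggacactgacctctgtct
Herpud1, ATF4 element: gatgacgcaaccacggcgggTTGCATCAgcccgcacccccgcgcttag

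The arrays and the tissue were checked first. The mean of 9 markers of excitatory cortical neurons lay between 10.35 and 10.86 per mouse, and that of 10 choroid plexus markers between 4.72 and 5.41, levels of different probesets that are not compared with each other. Markers of striatal neurons were higher in CIE mice at 0h, by a median of 0.80 over 14 genes, with 14 of 14 positive and 0 called (10 at an unadjusted p of 0.05 in limma). Their mean lay between 8.35 and 10.20 in CIE mice and between 8.08 and 8.54 in Ctrl mice at 0h. At 8h, 8 of the 14 were positive, with a median of 0.03. At 72h, 13 of the 14 were positive, with a median of 0.41, and their mean lay between 8.14 and 9.83 in CIE mice and between 8.18 and 8.92 in Ctrl mice. At 7d, 4 were positive, with a median of -0.14, and the mean lay between 8.23 and 9.68 in CIE mice and between 8.14 and 9.54 in Ctrl mice. CIE 8h mouse 15 correlated least with the other arrays, at a mean of 0.967, against a median of 0.992 over arrays. The labels also place each array in a repeat group, a term they do not define. Repeat group 2 held 3 Ctrl and 2 CIE mice, all at 8h, and the CIE mice were 15 and 23. The values had been adjusted by the authors for repeat group.

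**Figure D1:**
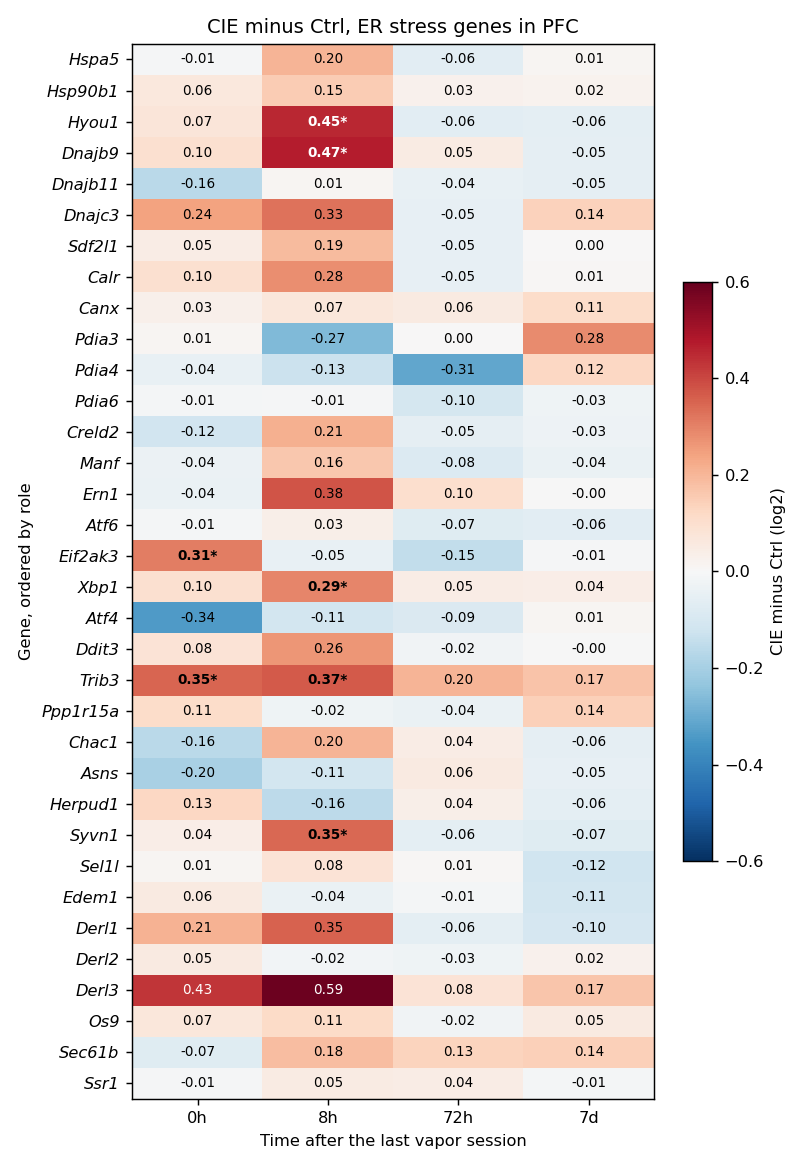
Difference of CIE and Ctrl means (log2, color and number) for the 34 genes (rows, ordered by role) at 4 times after the last vapor session (columns), each read from its brightest probeset. Bold values with a star passed FDR 0.01 in limma, which were 2 genes at 0h and 5 genes at 8h.

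At 8h after the last session, when ethanol vapor had been withdrawn, 5 of the 34 genes were higher in CIE mice and 0 were lower. These were the ER co-chaperone gene Dnajb9, the ubiquitin ligase gene Syvn1, the transcription factor gene Xbp1, the chaperone gene Hyou1 and the stress-induced pseudokinase gene Trib3. Over all genes, 2.21% were called higher at 8h and 1.28% lower. The differences of the 5 lay between 0.29 and 0.47, or between 1.22-fold and 1.38-fold. Over the 34 genes, 24 differences were positive (53.1% of all genes were), with a median of 0.16, beside 0.01 over all genes. At FDR 0.05, 12 of the 34 were called, each higher in CIE mice, beside 6.68% of all genes. In bulk tissue a change in the number of cells of a type and a change in RNA per cell cannot be told apart.

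Dnajb9 (ERdj4, probeset 1417191_at), a J-domain co-chaperone of BiP that delivers misfolded proteins to degradation and is a well-known target of XBP1, had the smallest adjusted p of the group. In CIE mice at 8h it read 11.49, 11.52, 11.52, 11.80 and 12.04, and in Ctrl mice at 8h between 11.17 and 11.30, with a median of 11.18. Every CIE mouse lay above every Ctrl mouse. It averaged 11.67 ± 0.24 in CIE mice (SD, n = 5) and 11.20 ± 0.05 in Ctrl mice (SD, n = 6), a difference of 0.47 (standard error 0.08, adjusted p = 0.000243). At 7d the CIE mean was 11.11 and the Ctrl mean 11.16. The effect at 8h exceeded that at 7d by 0.52 (adjusted p = 0.00258).

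Syvn1 (HRD1, probeset 1443609_s_at) encodes the membrane ubiquitin ligase at the center of ER-associated degradation. It read 9.28, 9.32, 9.41, 9.44 and 9.64 in CIE mice at 8h, and between 8.98 and 9.14 in Ctrl mice, with a median of 9.09. The ranges did not overlap. Its means were 9.42 ± 0.14 in CIE mice and 9.07 ± 0.05 in Ctrl mice, a difference of 0.35 (standard error 0.06, adjusted p = 0.000716), and the effect at 8h exceeded that at 7d by 0.42 (adjusted p = 0.00303). The second probeset of the gene, 1428070_at, went the other way at 8h, with a difference of -0.12 (adjusted p = 0.362).

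Xbp1 (probeset 1437223_s_at), whose mRNA is spliced by IRE1 to give the active factor, read 12.16, 12.25, 12.28, 12.37 and 12.54 in CIE mice at 8h and between 11.92 and 12.12 in Ctrl mice, with a median of 12.03. All 5 CIE mice lay above the highest Ctrl mouse. The difference was 0.29 (standard error 0.06, adjusted p = 0.00294). Of its other probesets, 1420011_s_at also passed, with a difference of 0.37 (adjusted p = 0.00600), 1420012_at differed by 0.53 (adjusted p = 0.0331) and 1420886_a_at by 0.07 (adjusted p = 0.552). The arrays do not separate the spliced from the unspliced form here.

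Hyou1 (ORP150, probeset 1423291_s_at), a large ER chaperone of the HSP70 class that also serves BiP as an exchange factor, read 9.24, 9.37, 9.42, 9.60 and 10.17 in CIE mice at 8h, against 9.03 to 9.17 in Ctrl mice with a median of 9.12. The groups did not overlap, and CIE mouse 15 stood highest. The difference was 0.45 (standard error 0.11, adjusted p = 0.00695), and it was 0.30 without that mouse (adjusted p = 0.0560). The dimmer probesets 1423290_at and 1451913_a_at differed by 0.21 and 0.05 (adjusted p = 0.233 and 0.851).

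Trib3 (probeset 1426065_a_at), a pseudokinase gene induced through ATF4 and CHOP, was called at both 0h and 8h. At 8h it read 5.97, 6.00, 6.10, 6.21 and 6.49 in CIE mice, against 5.70 to 5.94 in Ctrl mice with a median of 5.75. The difference was 0.37 (standard error 0.08, adjusted p = 0.00359). At 0h it lay between 5.91 and 6.23 in CIE mice, with a median of 6.16, and between 5.59 and 5.86 in Ctrl mice, with a median of 5.82. That difference was 0.35 (standard error 0.08, adjusted p = 0.00177), and the ranges did not overlap at either time. The second probeset, 1456225_x_at, also passed at 0h (0.56, adjusted p = 0.00123) and differed by 0.31 at 8h (adjusted p = 0.104). Its level was the lowest of the 34 genes on the array scale, with a mean of 5.88. Values at 72h differed by 0.20 and at 7d by 0.17, neither called.

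**Figure D2:**
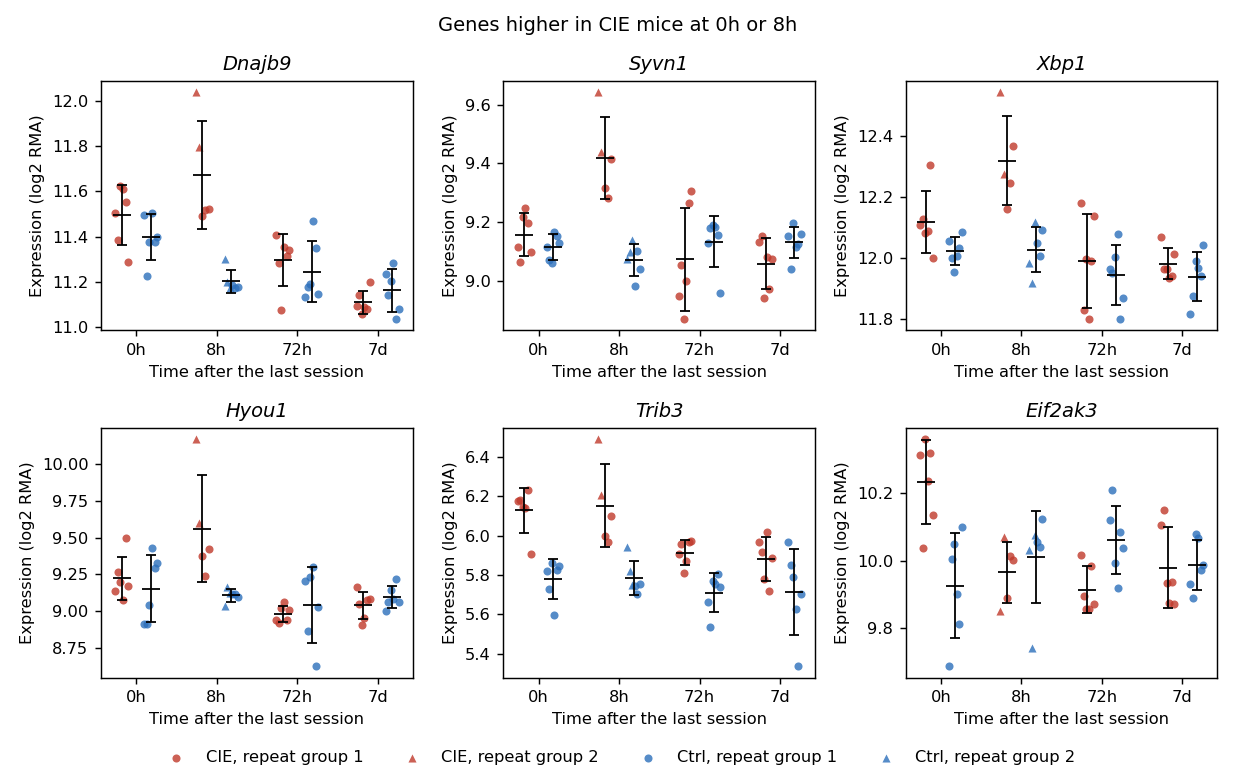
Expression (log2 RMA) of the 6 genes called at 0h or 8h, by time after the last session, in CIE mice (red, left of each pair) and Ctrl mice (blue), with triangles for repeat group 2, horizontal bars for means and whiskers for SD (n = 6 per group, 5 for CIE 8h). All 5 CIE mice lie above all 6 Ctrl mice at 8h in the first 5 panels, and the repeat group 2 mouse 15 is the highest CIE mouse in each of those.

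Of the 29 genes that were not called at 8h, differences lay between -0.27 (the isomerase gene Pdia3) and 0.59 (Derl3), with standard errors between 0.05 and 0.22 over the 34. Several were close to the threshold, each positive. These were Ddit3 (0.26, adjusted p = 0.0117), the degradation channel gene Derl1 (0.35, adjusted p = 0.0121), Calr (0.28, adjusted p = 0.0164), the translocon subunit gene Sec61b (0.18, adjusted p = 0.0170) and Derl3 (0.59, adjusted p = 0.0192). The BiP co-chaperone gene Dnajc3 (0.33, adjusted p = 0.0326) and the sensor gene Ern1 (0.38, adjusted p = 0.0451) followed. On their most variable probesets Ddit3 and Derl1 differed by -0.24 and -0.29 at 8h, while Calr stayed positive. In 9 of the 34 genes every CIE mouse lay above every Ctrl mouse, and in 0 every CIE mouse lay below, beside 3.86% and 2.76% of all genes. Beyond the 5 called these were Derl1, Derl3, Hsp90b1 and Sec61b.

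By role, the chaperones and co-chaperones were positive at 8h in 7 of 7 genes, and the 3 protein disulfide isomerases (Pdia3, Pdia4 and Pdia6) were negative in 3 of 3, with 0 called. Within repeat group 1, 7 of the 7 chaperones and co-chaperones and 2 of the 3 isomerases were positive, and within repeat group 2 these were 4 of 7 and 0 of 3. Of the 8 degradation genes, 5 were positive. BiP itself was not called. Hspa5 read 12.49, 12.57, 12.97, 13.01 and 13.16 in CIE mice at 8h and between 12.52 and 12.86 in Ctrl mice, with a median of 12.59. The groups overlapped, and the difference was 0.20 with a 95% interval from -0.0025 to 0.41 (adjusted p = 0.183). A dimmer probeset of the gene, 1447824_x_at, differed by 0.47 (adjusted p = 0.0187).

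The 8h result depended on which probeset of a gene was read. The 34 genes had 47 further probesets, of which 2 were called at 8h (1420011_s_at of Xbp1 and 1456170_x_at of Calr), 24 were positive, and the median was 0.01. With the mean of all probesets of each gene 4 of the 34 were called (Dnajb9, Hspa5, Trib3 and Xbp1) and the median was 0.04. With the most variable probeset 2 were called (Dnajb9 and Trib3) and the median was -0.03. The called genes Dnajb9 and Trib3 have 1 and 2 probesets.

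The 8h result also moved with repeat group. The difference was 0.33 within repeat group 1 and 0.69 within repeat group 2 for Dnajb9, 0.29 and 0.44 for Syvn1, 0.21 and 0.40 for Xbp1, 0.24 and 0.78 for Hyou1, and 0.29 and 0.51 for Trib3. Each of the 5 was thus higher in CIE mice within either repeat group, and by more in repeat group 2. For Derl3 the values were 0.29 and 1.03, for Ern1 0.15 and 0.73, and for Dnajc3 0.10 and 0.64. A few chaperone genes ran differently. Hspa5 differed by 0.31 within repeat group 1 and -0.01 within repeat group 2, Manf by 0.28 and -0.05, Dnajb11 by 0.15 and -0.20, and Sdf2l1 by 0.36 and -0.12. The isomerase genes Pdia3, Pdia6 and Pdia4 differed by 0.20 and -0.98, by 0.09 and -0.20, and by -0.09 and -0.28. Over the 34 genes the medians were 0.15 and 0.11, with 25 and 24 positive, beside medians of -0.02 and 0.07 over all genes. Fitted on repeat group 1 arrays alone, 1 of the 34 was called at 8h (Ddit3, 0.35, adjusted p = 0.00566), and Dnajb9 had an adjusted p of 0.0152. Without CIE mouse 15, 2 were called (Dnajb9 and Syvn1), and without both CIE mice of repeat group 2, 1 was called (Ddit3). Fitted on 8h arrays alone, 0 were called, and Dnajb9 had an adjusted p of 0.0376. The part of repeat group in the result was not tested beyond these fits.

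At 0h, while the mice came straight from the vapor, 2 of the 34 genes were higher in CIE mice and 0 lower, beside 3.96% and 3.48% of all genes. The median difference was 0.04 (0.01 over all genes), with 21 positive (52.5% of all genes). The called genes were Trib3, given above, and Eif2ak3 (PERK), the sensor kinase that phosphorylates eIF2α and so raises translation of ATF4.

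Eif2ak3 (probeset 1449278_at) lay between 10.04 and 10.36 in CIE mice at 0h, with a median of 10.27, and between 9.69 and 10.10 in Ctrl mice, with a median of 9.95. The ranges overlapped. The difference was 0.31 (standard error 0.07, adjusted p = 0.00151), and at 8h it was -0.05. The effects at 8h and 0h differed by -0.35 (adjusted p = 0.0165), which was past FDR 0.05 and not 0.01. Its dim probesets 1430371_x_at and 1453505_a_at differed by -0.07 and -0.01 at 0h. The sensor gene Atf6 was called at no time. It averaged 10.59 in CIE mice and 10.60 in Ctrl mice at 0h, and 10.69 and 10.66 at 8h.

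Atf4, the factor downstream of PERK, is regulated largely at translation, which arrays do not read. Its brightest probeset (1448135_at) was lower in CIE mice at 0h, between 11.14 and 11.67 with a median of 11.35, against 11.57 to 12.04 in Ctrl mice with a median of 11.64. The difference was -0.34 (adjusted p = 0.0155), not called. The probesets disagreed: 1438992_x_at differed by -0.45 (adjusted p = 0.0187), and the dim 1439258_at, at a mean of 4.88 in CIE mice and 4.33 in Ctrl mice, was called higher (0.55, adjusted p = 0.000807). No direction is therefore given for Atf4. Among the other genes of the ATF4 arm, Ppp1r15a (GADD34), whose product reverses eIF2α phosphorylation, differed by 0.11 at 0h, Chac1 by -0.16 and the asparagine synthetase gene Asns by -0.20, and none of the 3 was called.

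At 0h the striatal markers differed as described above. When their mean per array entered the model, Trib3 differed by 0.32 (adjusted p = 0.00970) and Eif2ak3 by 0.31 (adjusted p = 0.00400), and both stayed called. At 8h the same term left the 5 genes called and added Derl1 (0.35, adjusted p = 0.00809). Other markers moved at both times. Of 9 microglial markers, Fcrls was called at 0h (-1.29), and Fcrls (-0.89) and P2ry12 (-0.57) at 8h, each lower in CIE mice, while 4 of the 9 were positive at either time and the medians were -0.04 at both. The mean of the microglial markers lay between 8.38 and 9.22 in CIE mice and between 8.86 and 9.18 in Ctrl mice at 0h, and between 8.52 and 9.11 in CIE mice and between 8.86 and 9.09 in Ctrl mice at 8h. Plasma cells carry high levels of Xbp1 and Derl3. Of the 7 measured markers of B and plasma cells, 6 averaged between 4.45 and 5.51 over all arrays and Ighm 12.19. Ighm was called lower at 0h (-1.02) and 8h (-1.03), and the mean of the list at 8h lay between 5.76 and 6.00 in CIE mice and between 5.89 and 6.09 in Ctrl mice. Of 9 excitatory neuron markers, Neurod2 was called higher (0.43) and Neurod6 lower (-0.38) at 0h, and at 8h 7 were positive with a median of 0.20 and 0 called. Of 8 inhibitory neuron markers, Sst was called lower at 8h (-0.29), where 3 were positive with a median of -0.08. Of 10 choroid plexus markers, 5 were positive at 0h and 6 at 8h, and Clic6 (0.51 at 0h and 0.61 at 8h) and Kl (-0.46 at 0h) were called. Of 3 measured blood markers, 1 was positive at either time, and Alas2 (-0.59 at 0h and -0.77 at 8h) was called. Clic6, Kl and Alas2 were dim, at means of 5.74, 4.46 and 5.65 over all arrays. The part of these markers in the results was not tested.

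At 72h and 7d, 0 of the 34 genes were called in either direction, beside 0.286% of all genes higher and 0.159% lower at 72h, and 0.434% and 0.291% at 7d. At an unadjusted p of 0.05 limma gave 2 higher and 1 lower at 72h (6.67% and 6.33% of all genes), and 4 higher and 1 lower at 7d (8.23% and 8.38%). The median differences were -0.02 and -0.0033. Every CIE mouse lay above every Ctrl mouse for 2 of the 34 at 72h, Sec61b and Trib3, and for 0 at 7d. Over all genes these shares were 1.03% and 1.56%. The smallest adjusted p was 0.146 at 72h and 0.0874 at 7d, where it was that of Sec61b, which differed by 0.13 at 72h and 0.14 at 7d. Over the 4 times together, the F test called 7 of the 34 (Derl1, Dnajb9, Eif2ak3, Sec61b, Syvn1, Trib3 and Xbp1), beside 13.1% of all genes.

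Whether the ethanol effect itself differed between times was tested as a difference of differences. Between 8h and 7d it differed for 2 of the 34, Dnajb9 and Syvn1, each more positive at 8h, beside 1.08% of all genes in that direction. Derl1 (0.46, adjusted p = 0.0252) and Hyou1 (0.51, adjusted p = 0.0329) passed FDR 0.05. Between 8h and 0h 0 were called (1.92% of all genes were more positive at 8h and 1.51% more negative), and at an unadjusted p of 0.05 limma gave 8 more positive and 2 more negative (13.3% and 11.3%). Between 8h and 72h 0 were called (0.0055% of all genes), with 10 more positive and 0 more negative at an unadjusted p of 0.05 in limma (7.6% and 5.27% of all genes). Between 0h and 7d 0 were called (0.22% of all genes were more positive at 0h), with 2 more positive and 2 more negative at an unadjusted p of 0.05 in limma (9.15% and 7.48%).

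Levels of some of the 34 genes also differed between harvest times in mice that had no ethanol. Harvest time is also the time since the last chamber session and pyrazole injection, and these cannot be told apart. In Ctrl mice Hspa5 averaged 12.72 ± 0.28 at 0h, 12.64 ± 0.13 at 8h, 12.35 ± 0.16 at 72h and 12.34 ± 0.10 at 7d (SD, n = 6 each). In CIE mice it averaged 12.71 ± 0.14 at 0h, 12.84 ± 0.29 at 8h, 12.29 ± 0.10 at 72h and 12.35 ± 0.04 at 7d. Levels of BiP mRNA were thus higher at 0h than at 72h or 7d under either exposure. An F test over the 4 Ctrl groups called 1 of the 34, Derl3 (adjusted p = 0.00574), beside 1.52% of all genes, with Hspa5 (adjusted p = 0.0121) and Manf (adjusted p = 0.0124) next.

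**Figure D3:**
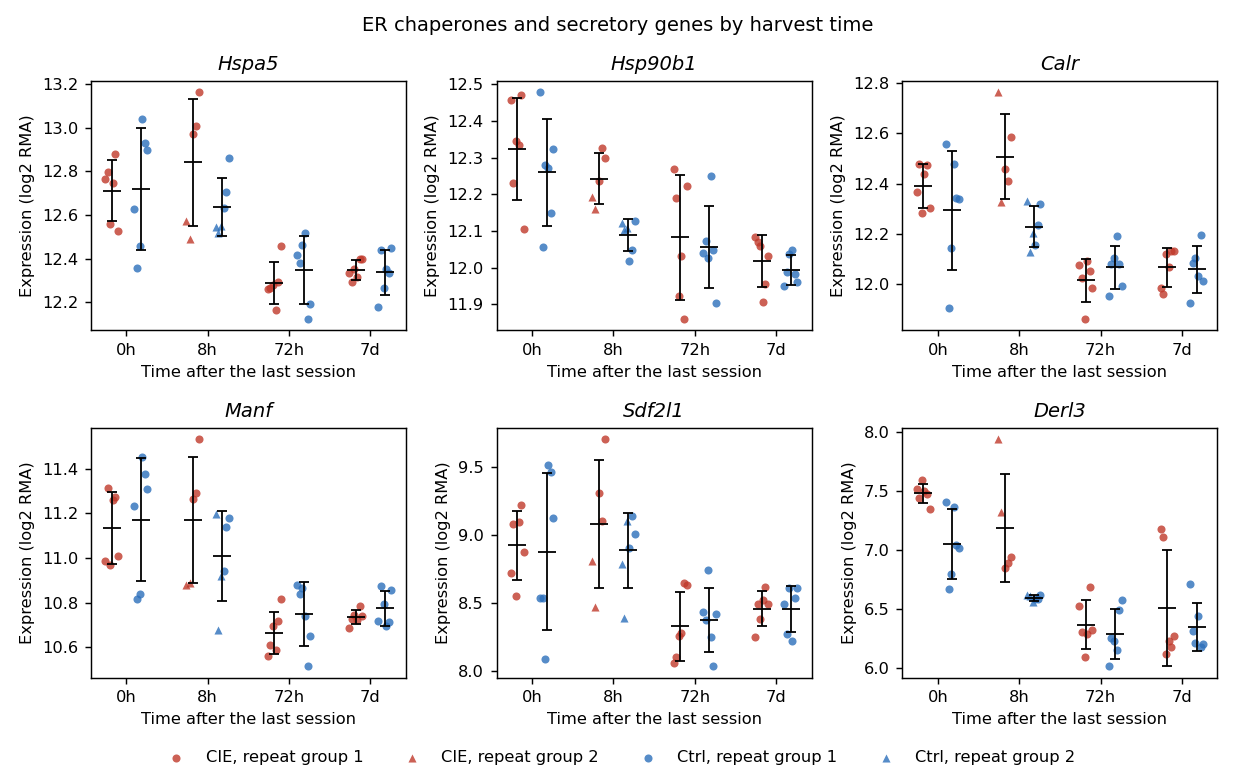
Expression (log2 RMA) of 6 ER chaperone and secretory genes by time after the last session in CIE mice (red, left of each pair) and Ctrl mice (blue), with triangles for repeat group 2, horizontal bars for means and whiskers for SD (n = 6 per group, 5 for CIE 8h). Hspa5 lies between 12.36 and 13.04 in the 6 Ctrl mice at 0h and between 12.12 and 12.52 in the 12 Ctrl mice at 72h and 7d.

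Contrasts of 0h or 8h with the mean of 72h and 7d, within 1 exposure, were added after these levels were seen. In Ctrl mice at 0h, 5 of the 34 were higher than late (beside 1.16% of all genes) and 0 lower (0.901%). They were Derl3 (0.74), a degradation channel subunit, Manf (0.41), a secreted factor of the ER stress response, Hspa5 (0.37), Hsp90b1 (0.23) and Sec61b (0.18). Ctrl mice at 0h were uneven: Manf read between 10.82 and 11.45, and the late Ctrl mice between 10.51 and 10.88, so that the ranges overlapped. In 0 of the 34 genes did every Ctrl mouse at 0h lie above every late Ctrl mouse, beside 0.159% of all genes. At 8h in Ctrl mice 0 of the 34 were called, as were 0 of all genes (0%), while at an unadjusted p of 0.05 limma gave 11 higher and 1 lower (6.72% and 6.8% of all genes). The smallest p among these were those of Pdia6 (0.31) and Hspa5 (0.29). For Pdia6, 1 of the 34, every Ctrl mouse at 8h lay above every late Ctrl mouse, beside 0.0715% of all genes. Since repeat group 2 held 8h mice alone, the authors' adjustment for it can add or shrink each contrast of 8h with late. Pdia6 and Hspa5 in Ctrl mice at 8h lay 0.41 and 0.39 above late within repeat group 1. Within repeat group 2 these were 0.22 and 0.19. Over the 34 genes the medians in repeat groups 1 and 2 were 0.059 and 0.057, with 27 and 24 positive. Over all genes the medians were -0.0036 and -0.0038.

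In CIE mice at 0h, 9 of the 34 were higher than late and 1 lower, beside 4.75% and 2.54% of all genes. The largest was Derl3, at 7.35 to 7.59 at 0h and 6.09 to 7.18 late, a difference of 1.04. Calr differed by 0.35, Manf by 0.44 and Hspa5 by 0.39, and every mouse at 0h lay above every late mouse for 4 genes, Derl3, Calr, Manf and Hspa5, beside 1.08% of all genes. The others called higher were Ddit3 (0.32), Dnajb9 (0.29), Eif2ak3 (0.29), Hsp90b1 (0.27) and Herpud1 (0.23). The 1 lower was Atf4 (-0.40 on its brightest probeset), whose probesets disagreed in CIE against Ctrl mice at 0h, as given above. In CIE mice at 8h, 12 were higher than late and 0 lower, beside 3.33% and 1.95% of all genes. They were Derl3 (0.75), Sdf2l1 (0.69), Hyou1 (0.55), Hspa5 (0.52), Dnajb9 (0.47), Manf (0.47), Calr (0.47), Ddit3 (0.42), Dnajc3 (0.38), Pdia6 (0.37), Syvn1 (0.35) and Xbp1 (0.33). The repeat groups stood apart in some of these. Derl3 read 7.94 and 7.32 in CIE mice 15 and 23 of repeat group 2, against 6.84 to 6.94 in repeat group 1. Sdf2l1 read 8.81 and 8.47 in mice 15 and 23, against 9.10 to 9.70 in repeat group 1. For 5 of the 34 every mouse at 8h lay above every late mouse, beside 0.627% of all genes. The medians over the 34 genes were 0.09 in Ctrl mice at 0h, 0.06 in Ctrl mice at 8h, 0.15 in CIE mice at 0h and 0.24 in CIE mice at 8h. The late mice are shared by contrasts of the same exposure. The striatal markers were uneven among late mice, as given above. With their mean in the model, all 5 calls in Ctrl mice at 0h and all 12 in CIE mice at 8h stayed. All 10 in CIE mice at 0h also stayed, with 1 more, Sdf2l1. The striatal term was added after the data were seen, and the part of striatal tissue in these calls was not tested.

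The genes were then read by harvest time and by exposure together. Hspa5 and Manf were higher at 0h than late in both exposures and differed between exposures at 0h by -0.0061 and -0.04. Syvn1 and Xbp1 differed between 0h and the late times in Ctrl mice by -0.02 and 0.08, and their called change was that of CIE mice at 8h. Derl3 was higher at 0h than late in both exposures, while neither its 0h nor its 8h difference between exposures was called. At 0h it lay between 7.35 and 7.59 in CIE mice and between 6.67 and 7.41 in Ctrl mice (difference 0.43, adjusted p = 0.0603). At 8h it read 6.84, 6.89, 6.94, 7.32 and 7.94 in CIE mice against 6.55 to 6.62 in Ctrl mice. That 8h difference was 0.29 within repeat group 1 and 1.03 within repeat group 2. A pair of CIE mice at 7d also stood high for Derl3, at 7.11 and 7.18, while the other 4 lay between 6.11 and 6.27.

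**Figure D4:**
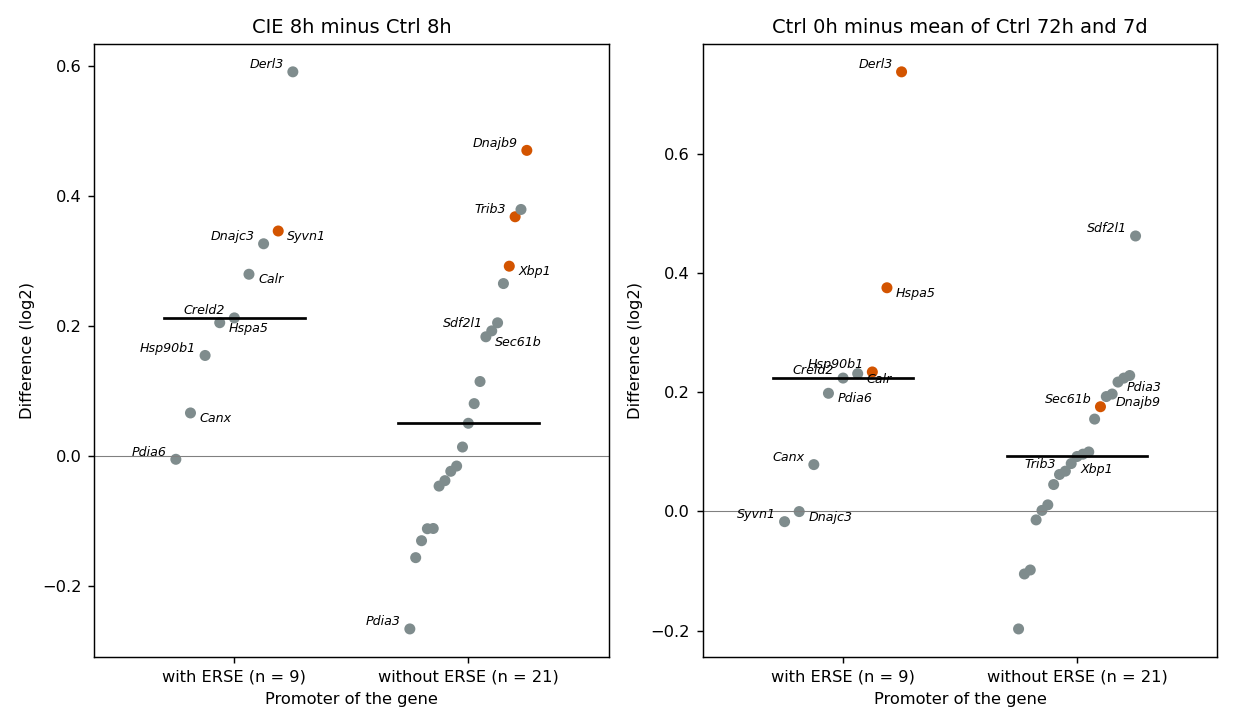
Log2 difference of each gene with a promoter in the table, in the contrast CIE minus Ctrl at 8h (left) and in Ctrl mice at 0h minus the mean of 72h and 7d (right), for the 9 genes with ERSE letters and the 21 without. Horizontal bars are medians, orange points passed FDR 0.01 in limma, and the medians with and without ERSE are 0.21 and 0.05 (left) and 0.22 and 0.09 (right).

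The 9 genes with ERSE letters, printed above, were compared with the 21 whose promoters lacked them. In CIE against Ctrl mice at 8h, 8 of the 9 were positive with a median of 0.21, and of the 21, 12 were positive with a median of 0.05. Of those called at 8h, Syvn1 had ERSE letters, Dnajb9, Trib3 and Xbp1 did not, and Hyou1 had no promoter entry. In Ctrl mice at 0h against late, 7 of the 9 were positive with a median of 0.22, and 17 of the 21 with a median of 0.09. In CIE mice at 8h against late, 9 of the 9 were positive with a median of 0.37, and 16 of the 21 with a median of 0.11. In CIE against Ctrl mice at 0h, the medians were 0.041 and 0.046, with 0 of the 9 and 2 of the 21 called. At 72h they were -0.05 and 0.0034, and at 7d 0.011 and -0.0020. These are descriptions with no test, and Herpud1, with both the ERSE-II and the ATF4 element, differed by -0.16 between CIE and Ctrl mice at 8h, by -0.02 within repeat group 1 and -0.37 within repeat group 2.

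Of 167 other measured genes from 8 lists of the same pathways, 3 were higher (1.8%) and 7 lower (4.19%) in CIE mice at 0h, beside 3.96% and 3.48% of all genes. At 8h 3 were higher (1.8%) and 1 lower (0.599%), beside 2.21% and 1.28% of all genes, and 0 were called at 72h and 7d. Their median difference was 0.0047 at 0h and 0.0073 at 8h. At 0h the calls included Ddit4 (0.63), an inhibitor of mTOR signaling, and Atf5 (0.59), both genes of the integrated stress response, while Mthfd2 (-0.42), a mitochondrial folate enzyme induced by ATF4, was lower. The isomerase gene Pdia5 (-0.48), the translocon gene Sec61a1 (-0.27), the UDP-N-acetylhexosamine pyrophosphorylase gene Uap1 (-0.27), the COPII coat gene Sec13 (-0.24) and the tRNA synthetase gene Tars (-0.22) were also lower, and the degradation gene Erlin2 (0.32) was higher. At 8h the ER lectin gene Erlec1 (0.28) and the translocation gene Sec63 (0.28) were higher, and the glucosidase gene Mogs (-0.31) was lower. Map3k5 (ASK1), a kinase that IRE1 can engage, was lower at 0h (-0.33) and higher at 8h (0.28). For the ER folding list, 14 of 29 genes were positive at 8h, and for the ER-associated degradation list 10 of 24. The counts were 11 of 20 for the translocon, 12 of 20 for N-glycosylation and 12 of 20 for integrated stress response targets. They were 6 of 12 for tRNA synthetases, 10 of 18 for stress sensors and 14 of 24 for COPII and Golgi transport, beside 53.1% of all genes.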

How the data were processed

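The deposited values are log2 levels of each probeset, made by the authors with RMA per the submitters' processing notes. The study's methods describe RMA and quantile normalization with affy followed by ComBat for repeat group (versions not given in the sources used here). Such an adjustment can add or shrink differences at 8h, since repeat group 2 held 8h mice alone. No scaling or filter was added to the deposited table. Annotation gave 1 symbol to 34945 probesets, several to 932 and none listed for 9160, and 34741 symbols were updated by Entrez identifier to GRCm38.p6 RefSeq names. A model with a mean for each of 8 groups was fitted to 47 arrays (limma 3.58.1, R 4.3.3), with Benjamini-Hochberg adjustment over 45037 probesets. Every adjusted p is from limma. The probeset of highest mean was read for each gene, those with the suffix _x_at last. Probesets with the suffix _s_at were treated as any other, among them those read for Syvn1, Xbp1, Hyou1 and Derl1. The number of arrays limits the precision. Named genes were those called at FDR 0.01, the sensors and factors, and up to 4 genes per other list and time. The members, gene lists, rules and settings were chosen with earlier results of these data known. Promoters are from RefSeq. The fitting was tested on simulated data.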

Additional observations from a re-analysis of the deposited data

Results flagged for a closer look

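In 88 groups of 5 or 6 mice (11 genes), 4 held a mouse far from the rest of its group, where chance flags about 1 in 20. Dnajb9 was highest in Ctrl 8h mouse 32, at 11.30, a value still below the lowest CIE 8h mouse. Eif2ak3 was lowest in Ctrl 8h mouse 42, at 9.74. Syvn1 was lowest in Ctrl 72h mouse 68, at 8.96. Trib3 was lowest in CIE 0h mouse 72, at 5.91, the CIE mouse nearest to the Ctrl range. The ethanol effect at 8h exceeded that at 7d by 0.52 for Dnajb9 and by 0.42 for Syvn1, by the tests of the difference given in the report.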

How the results depend on the processing

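The 5 calls at 8h became 12 at FDR 0.05, 10 with array weights, 8 with repeat group as a term, 2 with the most variable probeset, 1 on repeat group 1 arrays alone, 1 without both CIE mice of repeat group 2 and 0 on 8h arrays alone. Leaving out 1 mouse gave 2 to 7 calls at 8h, the fewest without CIE mouse 15, 3 without Ctrl mouse 66 or 75, and 2 to 3 calls at 0h. At 72h and at 7d it gave 0 to 0. Hyou1 was lost in 7 of 11 such fits (without CIE mouse 15 or 23, or Ctrl mouse 32, 50, 66, 75 or 79), Trib3 at 8h in 4 (CIE mouse 15 or 23, Ctrl mouse 66 or 75) and Xbp1 in 1 (CIE mouse 15). The medians ranged over 0.02 to 0.06 at 0h, 0.10 to 0.18 at 8h, -0.04 to -0.01 at 72h and -0.018 to 0.0077 at 7d. Calls at 0h numbered 1 with the mean of all probesets and 1 on 0h arrays alone, and at 7d 1 with array weights (Sec61b). The most variable probeset moved the median to -0.031 at 8h and 0.040 at 7d, and the mean of all probesets moved it to 0.040 at 8h. That probeset reversed Atf4 at 0h (0.55), Eif2ak3 at 0h (-0.0084), Ddit3 (-0.24), Derl1 (-0.29) and Syvn1 (-0.12) at 8h, and Syvn1 between 8h and 7d (-0.24), being another probeset of the gene.

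The effects at 8h and 0h differed for 2 genes with array weights, 1 with the most variable probeset and 2 with the repeat group term. Those at 8h and 7d differed for 4 with array weights, 1 with the mean of probesets, 1 with the most variable probeset and 0 on repeat group 1. The F test over the 4 contrasts called 4 with the most variable probeset and 3 on repeat group 1. Over Ctrl times it called 10 with array weights, 3 with trended robust variances, 2 with the mean of probesets, 4 with the most variable probeset, 6 on repeat group 1 and 6 with the repeat group term. Ctrl 0h against late called 8 with array weights and 3 with probesets of mean level 5 or more, Ctrl 8h against late 9 with array weights, 1 on repeat group 1 and 3 with the repeat group term, and CIE 8h against late 7 with the most variable probeset. The striatal term, the late contrasts and the fit without both mice were added after the data were seen. Causes were not tested. No paired analysis was possible because no mouse number occurs in more than 1 group. Trib3 lay nearest to the dim end of the array scale, at a mean of 5.88.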
